A study of Mus musculus with 2 samples.

Results

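The autophagy and lysosome genes described here are 34 genes of the machinery that encloses cell contents and digests them, chosen by name for their known function. A gene was measured where a probe of the array carried its symbol or an older synonym. This held for 32 of the 34, each with 1 probe, among 16390 genes with a named probe in all. Tfeb is listed on the array as Tcfeb and Ctsa as Ppgb. The other 2 have no value here, among them Bnip3, a mitophagy receptor, which no named probe matched. A gene was called detected in a heart where its spot was brighter than the array's 2736 blank spots by 2 SD. In all 4 hearts 31 of the 34 genes were detected, as were 11701 of the 16390 genes. Atg9a, the membrane protein of the vesicles that seed autophagosomes, was detected in the control CR heart alone and lay close to the detection limit there.

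RNA came from whole hearts of 6-month-old male mice on the C57BL/6J background, after 3 months of caloric restriction by 40% (CR) or of free feeding (ad libitum, AL). The 4 hearts were 1 CR and 1 AL heart lacking Sirt1, an NAD-dependent deacetylase, in cardiomyocytes, and 1 CR and 1 AL heart of the corresponding controls. The sources used here do not give the driver of the deletion or say whether the controls carried any of its alleles. Each array was hybridised with the CR heart in Cy3 and the AL heart in Cy5 of 1 genotype, without a dye swap. Diet therefore cannot be told apart from dye, nor genotype from array. With 1 heart per condition no value has a replicate check: there is no test, no p-value and no SD, and each difference describes these hearts only. In RNA from whole tissue, fewer cells of a type and less RNA per cell cannot be told apart.

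In macroautophagy, starvation or damage activates the ULK kinases, and a lipid kinase complex around Beclin 1 then marks the membrane where an autophagosome forms. A conjugation system related to that of ubiquitin couples LC3 and GABARAP proteins to this membrane, where receptors such as p62 tether cargo. The closed vesicle fuses with the lysosome, whose cathepsins and glycosidases digest the content, and the transcription factor TFEB switches on many of these genes through E-box sequences in their promoters. In heart muscle, whose cells are rarely replaced, this turnover is a main route for removing damaged mitochondria and protein aggregates.

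The E-box core CACGTG, the centre of the element that TFEB recognises, was searched in the 250 bases before the annotated starts of the members (RefSeq promoters, GRCm38.p6). It reads the same on both strands, so 1 search covers both. Promoters were found for 28 of the 34 genes, 33 in all because 4 genes have more than 1 start. Of the 28 genes, 10 held the core (Atg3, Atg5, Atg7, Bnip3, Ctsa, Ctsd, Ctsl, Lamp1, Lgmn and Mcoln1), as did 6.86% of the 27025 genes in the promoter set. By promoter, the core was present in 30.3% of those of the members, against 6.02% of all 32851. The longer palindrome TCACGTGA, which contains the core, was present before Atg3, Ctsa, Ctsd and Mcoln1, against 0.785% of all promoters.

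Not every annotated start is the outer end of its gene. The start listed for Ctsl lies 252 bases inside the gene, that for Atg7 lies 27969 bases inside, and the matches of Ctsa and Lgmn precede starts 901 and 636 bases inside. Among starts within 50 bases of the gene's 5′ end, the core was present in 6 of 25 member promoters (Atg3, Atg5, Bnip3, Ctsd, Lamp1 and Mcoln1), or 24%, and in 5.86% of 22754 promoters. The antioxidant response element TGACNNNGC, searched on both strands and able to overlap an E-box that is followed by AC, was present for 5 of the 28 genes (Ctsd, Ctsz, Hexa, Psap and Ulk2), or 17.9%, against 11.5% of all genes and 10.2% of all promoters. The forkhead motif GTAAACA, searched on both strands, was present for 0 of the 28 genes, against 3.54% of all genes and 3.17% of all promoters. A match describes the letters of the window only.

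The 4 promoters that follow show the density and spacing of the cores, written 5′ to 3′ on the strand of the gene, with each CACGTG in capitals. They lie at chr8:13158911-13159160 (Lamp1, plus strand), chr8:3500269-3500518 (Mcoln1, plus strand), chr7:142387828-142388077 (Ctsd, minus strand) and chr16:45158579-45158828 (Atg3, plus strand). The last base printed is the one just before the annotated start.
Lamp1: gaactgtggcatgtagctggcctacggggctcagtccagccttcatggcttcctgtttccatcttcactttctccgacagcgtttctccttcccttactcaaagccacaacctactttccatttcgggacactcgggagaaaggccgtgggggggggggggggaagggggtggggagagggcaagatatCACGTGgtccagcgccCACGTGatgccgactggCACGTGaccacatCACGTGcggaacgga
Mcoln1: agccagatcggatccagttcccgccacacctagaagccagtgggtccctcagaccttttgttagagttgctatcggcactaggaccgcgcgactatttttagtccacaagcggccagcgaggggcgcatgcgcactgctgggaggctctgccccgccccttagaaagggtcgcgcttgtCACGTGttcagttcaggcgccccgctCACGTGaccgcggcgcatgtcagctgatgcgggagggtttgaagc
Ctsd: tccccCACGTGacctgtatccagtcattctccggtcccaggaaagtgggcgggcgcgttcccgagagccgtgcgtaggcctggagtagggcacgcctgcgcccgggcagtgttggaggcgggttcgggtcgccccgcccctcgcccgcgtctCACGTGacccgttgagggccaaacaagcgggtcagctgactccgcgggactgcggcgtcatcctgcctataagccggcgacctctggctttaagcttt
Atg3: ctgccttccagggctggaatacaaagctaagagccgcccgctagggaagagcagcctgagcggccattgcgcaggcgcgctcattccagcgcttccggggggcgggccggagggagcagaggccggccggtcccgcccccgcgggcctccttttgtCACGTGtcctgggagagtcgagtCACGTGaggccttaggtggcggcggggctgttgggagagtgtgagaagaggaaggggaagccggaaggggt
Lamp1 carried 4 cores between 61 and 15 bases before its start, the most of any member. Mcoln1, Ctsd and Atg3 carried 2 each, of which 1 lies in the palindrome.

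For comparison, the promoters of Sqstm1 (chr11:50210821-50211070, minus strand) and Pink1 (chr4:138326297-138326546, minus strand) are printed, because both genes had more signal in the CR heart of either genotype. Neither holds CACGTG in this window, so neither has capitals. Ctsl and Mcoln1, which hold a core, also had more signal in the CR heart of either genotype. The choice of these promoters therefore says nothing about the core.
Sqstm1: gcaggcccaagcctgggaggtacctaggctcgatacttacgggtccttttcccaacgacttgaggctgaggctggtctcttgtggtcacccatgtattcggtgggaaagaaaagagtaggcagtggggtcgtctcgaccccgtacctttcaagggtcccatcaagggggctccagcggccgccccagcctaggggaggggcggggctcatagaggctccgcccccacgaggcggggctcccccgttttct
Pink1: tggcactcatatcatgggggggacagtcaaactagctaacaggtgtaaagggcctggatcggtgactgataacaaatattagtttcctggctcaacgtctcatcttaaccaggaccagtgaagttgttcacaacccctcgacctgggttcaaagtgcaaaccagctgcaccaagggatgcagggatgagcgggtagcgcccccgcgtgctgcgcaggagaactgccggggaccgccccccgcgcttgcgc

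**Figure D1:**
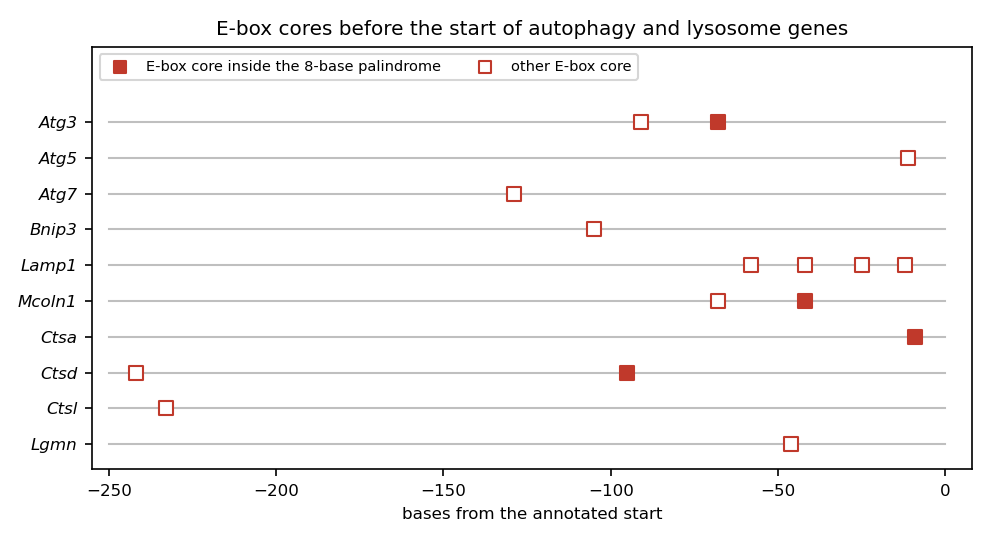
Position of each E-box core in the 250 bases before the annotated start of the 10 genes that hold one. The x axis is bases from that start, and filled squares are cores inside the 8-base palindrome. Of the 16 cores, 12 lie within 100 bases of the start; the starts of Ctsl and Atg7, and those carrying the matches of Ctsa and Lgmn, lie inside the gene.

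Medians of the diet difference lay near 0 with and without the core. The 9 measured genes with a core had a median log2 CR over AL of -0.01 in the knockout and -0.03 in the control pair. For the 17 measured genes without one the medians were 0.03 in the knockout and 0.02 in the control pair. TFEB's own transcript differed little: its log2 signal was 6.35 and 6.32 in the knockout CR and AL hearts and 6.34 and 6.29 in the control CR and AL hearts. Of the genes with a core, Ctsl alone was past 1.5-fold in any comparison on the spot signal alone, and its core precedes the internal start. With the local background, the brightness around each spot, subtracted, others passed it too. Among them were Ctsd (1.14) and Lamp1 (-0.64) for CR over AL in the control pair.

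Before the values, the labels were set against markers. Sirt1 itself had log2 signals of 7.51 and 7.07 in the knockout CR and AL hearts and 7.53 and 7.11 in the control CR and AL hearts, so its probe did not separate the genotypes. The sources used here do not give where that probe lies relative to the deleted part, and whole hearts also hold cells other than cardiomyocytes. All 14 cardiomyocyte markers with a probe were detected in every heart. The atrial gene Myl7 differed between knockout and control hearts by -3.95 (AL) and -4.06 (CR) on the log2 scale, which moves with every genotype comparison below. Of 4 atrial markers, 3 had less and 1, Nppa, had more signal in the knockout AL heart. Myl4 differed by -2.47 (AL) and -2.71 (CR), and Nppa by 0.99 (AL) and 1.95 (CR). The 3 detected in all hearts (Myl7, Myl4 and Nppa) summed to 4971 and 2621 in the knockout CR and AL hearts. In the control CR and AL hearts the sums were 3252 and 3157. In the knockout CR and AL hearts Nppa had log2 signals of 12.22 and 11.24, beside 6.81 and 7.01 for Myl4. The sum there therefore follows Nppa. The part of atrial tissue in the genotype values was not tested.

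Most of the autophagy and lysosome genes were at a similar level in the 4 hearts. The distance between the highest and the lowest heart was under 1.5-fold for 26 of the 31 detected members (83.9%), against 89.1% of all genes. The correction used here shrinks the differences of dim genes, and 28 of the 31 were at or above the median signal. Among those brighter genes, 82.1% of members and 79.4% of all genes stayed under 1.5-fold, and the median range was 0.24 against 0.36 on the log2 scale. The 5 members past 1.5-fold were Ctsl, Sqstm1, Map1lc3a, Ctsh and Ctss.

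**Figure D2:**
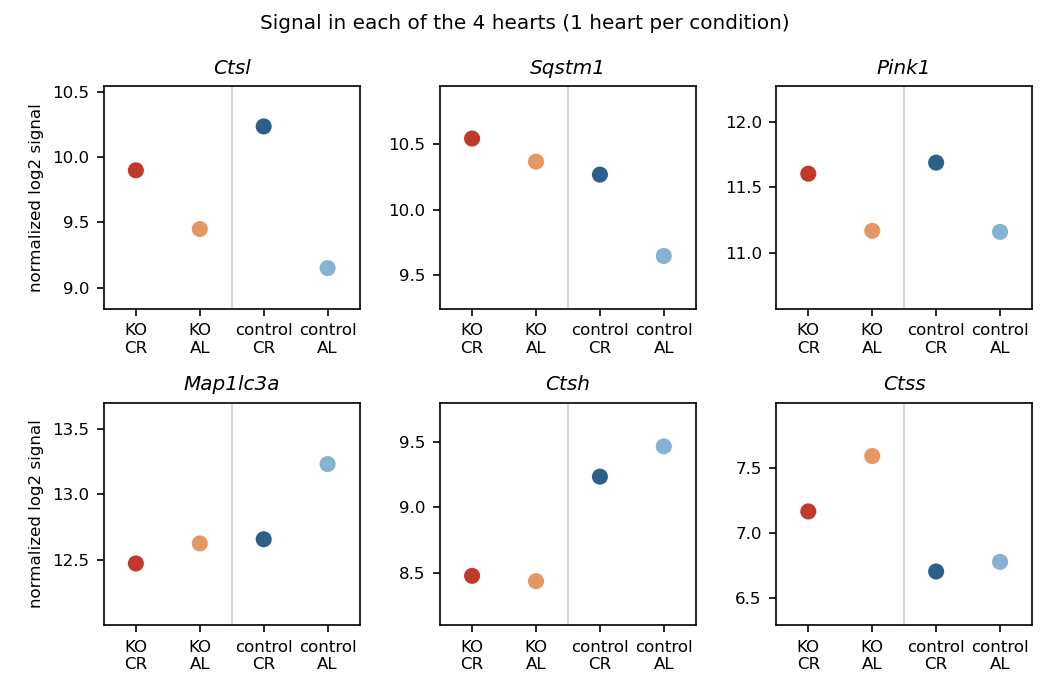
Normalized log2 signal (y axis) in the knockout (KO) CR, knockout AL, control CR and control AL heart for Ctsl, Sqstm1, Pink1, Map1lc3a, Ctsh and Ctss, 1 point per heart. Every panel spans the same height on the log2 scale; levels are not comparable between panels because the probes differ. The control AL heart is lowest for Sqstm1 and Ctsl and highest for Map1lc3a and Ctsh.

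The first question is what restriction goes with in control hearts. Ctsl and Sqstm1 had more signal in the CR heart by at least 1.5-fold, no member had less by that much, and Pink1 and Map1lc3a lay just inside that limit in opposite directions. These 2 of 31 are 6.45% of the members, against 0.814% of the 12658 genes compared; for lower signal the count was 0 of 31, against 0.34% of all genes. Signals of 14 members were above and of 17 below those of the AL heart, and the median log2 CR over AL was -0.03, against 0.00 for all genes. In the knockout pair 0 members were higher and 0 lower by 1.5-fold, against 0.758% of 12142 genes in each direction. There 15 members were above and 16 below 0, with a median of -0.01 and 0.00 for all genes.

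**Figure D3:**
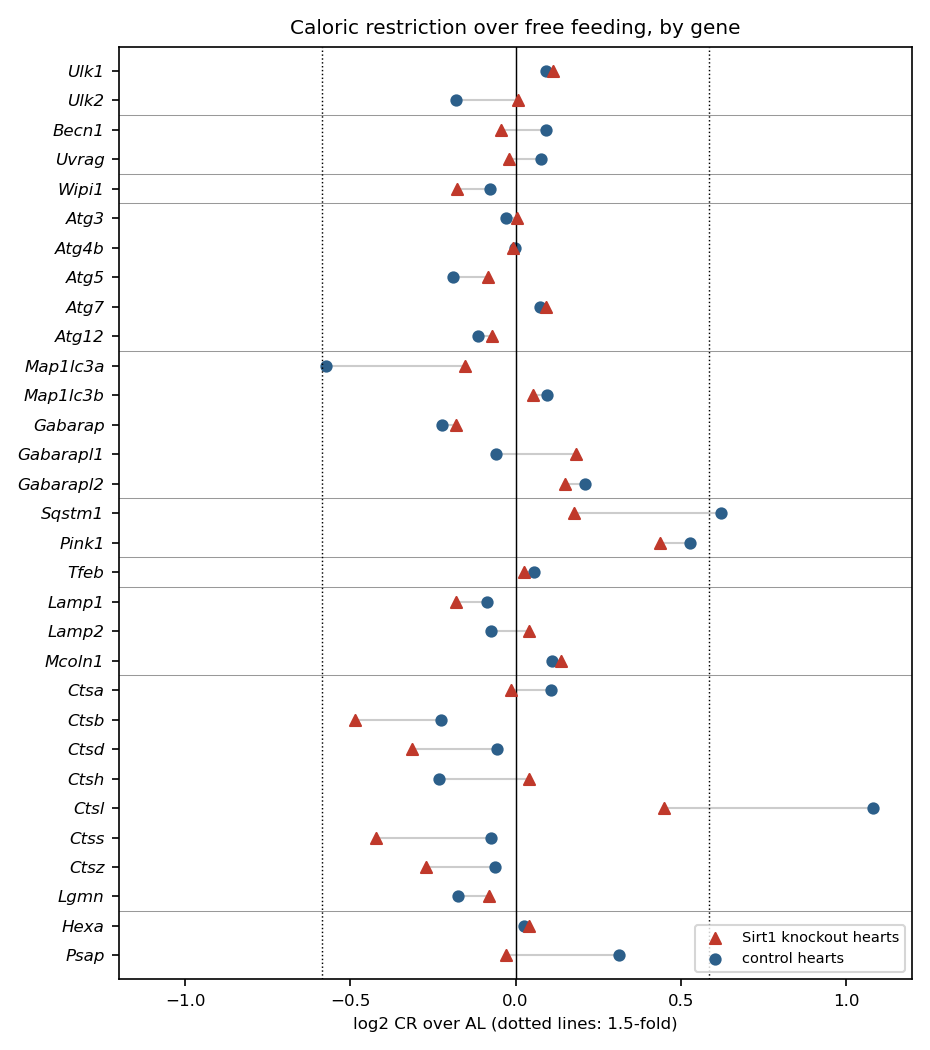
Log2 CR over AL (x axis) for the 31 detected members, ordered by role with lines between roles, in knockout hearts (red triangles) and control hearts (blue circles); dotted lines mark 1.5-fold. Ctsl at 1.08 and Sqstm1 at 0.62 in control hearts are the points past the upper line, and most others lie near 0 in both genotypes.

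Among the genes that start autophagosome formation, every diet difference was under 1.2-fold with the processing used here. The initiating kinase Ulk1 had log2 CR over AL values of 0.11 in the knockout and 0.09 in the control pair, and its relative Ulk2 had 0.01 in the knockout and -0.18 in the control pair. Becn1, which encodes Beclin 1, had -0.04 in the knockout and 0.09 in the control pair. Uvrag, a partner of Beclin 1, had -0.02 in the knockout and 0.08 in the control pair. Wipi1, which binds the lipid made by that complex, had -0.18 in the knockout and -0.08 in the control pair. Other ways of processing put some of these past 1.2-fold. Ulk1 had -0.40 in the control pair with the local background subtracted. In the authors' deposited ratios Ulk2 had -0.29 in the control and Wipi1 -0.40 in the knockout pair. Most genes of these arrays also lay in that band with the processing used here. In the knockout pair 87.4% of genes and in the control pair 87.7% differed by less than 1.2-fold.

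The conjugation genes were as close with the same processing, whereas Atg5 had -0.35 in the control pair in the authors' deposited ratios. Atg7, the E1-like enzyme, had a log2 CR over AL of 0.09 in the knockout and 0.07 in the control pair. Atg3, the E2-like enzyme for LC3, had 0.00 in the knockout and -0.03 in the control pair, at a signal near the detection limit. Atg5 had -0.08 and Atg12 -0.07 in the knockout pair, against -0.19 and -0.11 in the control pair; the proteins of both form the conjugate that directs LC3 to the membrane. Atg4b, the protease that trims LC3, had -0.01 in the knockout and -0.00 in the control pair.

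The LC3 and GABARAP proteins, which coat the autophagosome membrane, included the member with the lowest value in the control pair. Map1lc3a, encoding LC3A, had log2 signals of 12.47 and 12.62 in the knockout CR and AL hearts and 12.66 and 13.23 in the control CR and AL hearts. The control AL heart stood above the other 3. Its log2 CR over AL was -0.15 in the knockout and -0.57 in the control pair, and 48 of 12658 genes had a lower value in the control pair. With the local background, the brightness around each spot, subtracted, the values were 0.25 in the knockout and -0.89 in the control pair, so the knockout sign depends on that choice. Map1lc3b, encoding the widely used marker LC3B, had 0.05 in the knockout and 0.10 in the control pair. Gabarap had -0.18, Gabarapl1 0.18 and Gabarapl2 0.15 in the knockout pair, against -0.22, -0.06 and 0.21 in the control pair. The 2 LC3 genes thus lay on opposite sides of 0 in the control pair.

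Both measured genes of cargo recognition had more signal in the CR than in the AL heart of either genotype. Sqstm1 encodes p62, the receptor that links ubiquitinated cargo to LC3 and is itself degraded by autophagy. Its spot signals were 1488 and 1141 scanner units in the knockout CR and AL hearts and 1446 and 762 in the control CR and AL hearts. After normalization these were log2 signals of 10.54 and 10.37 in the knockout and 10.27 and 9.65 in the control hearts, so the control AL heart stood below the other 3. The log2 CR over AL was 0.18 in the knockout and 0.62 in the control pair, or 1.13-fold and 1.54-fold. In the authors' deposited table Sqstm1 had 0.21 in the knockout and 0.55 in the control pair, the second just under 1.5-fold. Of the 14 cardiomyocyte markers, 9 had more and 5 had less signal in the CR heart of the control pair. Their values lay between 1.30 (Myh6) and -0.72 (Mb), with a median of 0.21. With the local background subtracted that median was 0.09. Whether these marker values bear on Sqstm1 was not tested.

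Pink1 encodes the kinase that accumulates on damaged mitochondria and marks them for autophagy. Its log2 signals were 11.60 and 11.17 in the knockout CR and AL hearts and 11.69 and 11.16 in the control CR and AL hearts. The 2 CR hearts lay above the 2 AL hearts. How many of all genes show such an order, here or for Ctsl, Ctsh and Ctss below, was not counted. Between genotypes Pink1 differed by -0.08 (CR) and 0.01 (AL). Subtraction of the local background made these genotype values 1.06 (CR) and 1.15 (AL), which places the knockout AL heart above the control CR heart, and left CR above AL within each genotype, at 0.46 in the knockout and 0.55 in the control pair. The log2 CR over AL was 0.44 in the knockout and 0.53 in the control pair, under 1.5-fold in both. Loess within blocks of the array placed Pink1 at 0.59 and Sqstm1 at 0.58 in the control pair, which exchanges them at the limit of 1.5-fold. Of all genes compared, 236 in the knockout and 157 in the control pair had a higher value.

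Genes of the lysosomal membrane differed little between diets on the spot signal alone. Lamp1, a main glycoprotein of that membrane, had a log2 CR over AL of -0.18 in the knockout and -0.09 in the control pair. Lamp2, which is needed for fusion with autophagosomes and is lost in Danon cardiomyopathy in humans, had 0.04 in the knockout and -0.08 in the control pair. Mcoln1, a lysosomal calcium channel, had 0.14 in the knockout and 0.11 in the control pair. None of the 3 reached 1.5-fold on the spot signal alone. With the local background subtracted Lamp1 had 0.12 in the knockout and -0.64 in the control pair. Lamp2 then had 0.55 in the knockout and 0.01 in the control pair, and Mcoln1 had 0.48 and 0.22 in that order.

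On the spot signal alone, Ctsl showed the largest diet difference of the 31 members in control hearts, whereas Ctsd was larger once the local background was subtracted (1.14, against 0.97 for Ctsl). It encodes cathepsin L, a lysosomal cysteine protease whose loss in mice leads to dilated cardiomyopathy. Its spot signals were 967 and 609 scanner units in the knockout CR and AL hearts and 1408 and 530 in the control CR and AL hearts. Normalized log2 signals were 9.90 and 9.45 in the knockout CR and AL hearts and 10.23 and 9.15 in the control CR and AL hearts. The CR hearts of both genotypes lay above the AL hearts of both, with the control hearts at both extremes. This order held for the spot signal alone: with subtraction of the local background Ctsl was higher in the knockout than in the control heart, by 0.57 under CR and 1.23 under AL, and the knockout AL heart then lay above the control CR heart.

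The log2 CR over AL of Ctsl was 0.45 in the knockout and 1.08 in the control pair, which is 1.36-fold and 2.12-fold. In the control pair 5 of 12658 genes had a higher value. Under the 8 other ways of processing the control value ran between 0.97 and 1.18 and stayed past 1.5-fold in all 8, of which 3 (the mean of all probes, no detection filter and brighter genes only) leave a gene with 1 probe unchanged by construction. The authors' deposited table gives 0.49 for the knockout and 1.06 for the control pair.

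Of the 8 members of the cathepsin and legumain group, 6 had less signal in the CR heart in each genotype, with medians of -0.18 in the knockout and -0.07 in the control pair. Ctsb, encoding the abundant cysteine protease cathepsin B, had log2 signals of 10.85 and 11.34 in the knockout CR and AL hearts and 10.84 and 11.07 in the control CR and AL hearts. Its log2 CR over AL was -0.49 in the knockout and -0.22 in the control pair. Ctss, encoding cathepsin S, an enzyme of antigen-presenting cells, had -0.42 in the knockout and -0.07 in the control pair. Ctsz, encoding the exopeptidase cathepsin Z, had -0.27 in the knockout and -0.06 in the control pair, the last becoming 0.04 with median centring and 0.12 with the local background subtracted.

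Ctsd, encoding the aspartic protease cathepsin D, had a log2 CR over AL of -0.31 in the knockout and -0.06 in the control pair. Ctsh, an aminopeptidase, had 0.04 in the knockout and -0.23 in the control pair. Ctsa, which protects lysosomal neuraminidase and galactosidase, had -0.01 in the knockout and 0.11 in the control pair. Lgmn, the asparagine-specific protease that processes other cathepsins, had -0.08 in the knockout and -0.18 in the control pair. None of these 4 reached 1.5-fold on the spot signal alone. Ctsd in the control pair turned to 1.14 when the local background was subtracted.

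Macrophage markers moved in the same direction as Ctss, Ctsz and Ctsb. Of 16 macrophage markers compared, 15 in the knockout and 13 in the control pair had less signal in the CR heart, with medians of -0.32 and -0.22. Their summed signal over the 15 detected in all hearts was 2412 and 3795 in the knockout CR and AL hearts and 2205 and 2878 in the control CR and AL hearts. The knockout AL heart had the most of Ctss, Ctsz and Ctsb and of this sum, and also of the fibroblast and cardiomyocyte sums given below. No macrophage marker with a probe was undetected throughout, Cx3cr1 being detected in 3 hearts and Itgam in 2. Fibroblast markers had medians of -0.40 in the knockout and -0.24 in the control pair, and their 10 signals summed to 3979 and 5160 in the knockout CR and AL hearts and 3725 and 4906 in the control CR and AL hearts. With the local background subtracted, the macrophage medians were -0.14 in the knockout and -0.08 in the control pair. For fibroblast markers they were then -0.17 and -0.11. The 14 cardiomyocyte markers summed to 252761 and 305727 in the knockout CR and AL hearts. In the control CR and AL hearts that sum was 249937 and 271697. The part of any of these cell types in these differences was not tested.

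Of the last group, Psap encodes the precursor of the saposins, which present lipids to lysosomal hydrolases. Its log2 signals were 10.47 and 10.50 in the knockout CR and AL hearts and 10.72 and 10.41 in the control CR and AL hearts. The control CR heart stood above the other 3 on the spot signal alone, giving a log2 CR over AL of -0.03 in the knockout and 0.31 in the control pair. Subtraction of the local background placed both knockout hearts above the control CR heart. The log2 CR over AL was then -0.00 in the knockout and 0.22 in the control pair. Hexa, a subunit of the hexosaminidase that degrades gangliosides, had 0.04 in the knockout and 0.02 in the control pair.

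The second question is whether the response to diet differed without Sirt1 in cardiomyocytes. Ctsl was the 1 member whose response was lower in the knockout by at least 1.5-fold with the processing used here. By that much 0 members were higher. That is 3.23% of the members, against 0.513% of 11698 genes lower and 0.376% higher. The difference of responses, knockout minus control, was -0.63 for Ctsl, -0.44 for Sqstm1, -0.35 for Ctss, -0.34 for Psap, 0.42 for Map1lc3a and -0.09 for Pink1. For Ctsl, Sqstm1, Psap and Map1lc3a the knockout value lay nearer to 0 than the control value, whereas for Ctss it lay further from 0. The median over the members was -0.03, and -0.00 over all genes.

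Each of these differences rests on all 4 hearts, and on the spot signal alone the control AL heart stands apart for Sqstm1 and Map1lc3a. With the local background subtracted that heart remained the highest for Map1lc3a. For Sqstm1 both knockout hearts then lay above both control hearts. For Ctsl the value was past 1.5-fold under 7 of 8 other ways of processing. It ran between -0.68 and -0.57, the last being that of the authors' deposited ratios. The mean of all probes, no detection filter and brighter genes only leave this Ctsl value unchanged by construction. The difference for Map1lc3a, 0.42 on the spot signal, passed 1.5-fold in the authors' deposited ratios (0.68) and with subtraction of the local background (1.14). That subtraction also put Ctsd (-1.38), Sqstm1 (-0.81) and Lamp1 (0.75) past 1.5-fold. Over the 31 members, CR over AL in the knockout and in the control pair had a Pearson correlation of 0.69 and a Spearman correlation of 0.64, against 0.60 and 0.54 over all genes. Both pairs share the dye orientation and the probes, and the figures describe genes, which are not replicates. Without Ctsl the Pearson value over 30 members was 0.60. In direction, 10 members were above and 12 below 0 in both pairs, and 9 had opposite signs.

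The third question is how knockout and control hearts differed on the same diet, in the same dye on different arrays. Under free feeding Ctss and Sqstm1 had more signal in the knockout heart and Ctsh and Map1lc3a less, each by at least 1.5-fold. These 2 higher and 2 lower members are each 6.45% of the 31, against 2.57% of 12783 genes higher and 1.78% lower. Under restriction 0 members were higher and 1, Ctsh, was lower, against 1.43% and 1.08% of 11957 genes. For the brighter genes these shares were 2.70% and 2.14%, beside 0 and 1 of 28 members. The medians over the members were 0.01 under AL and -0.02 under CR, against 0.01 and 0.00 over all genes.

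**Figure D4:**
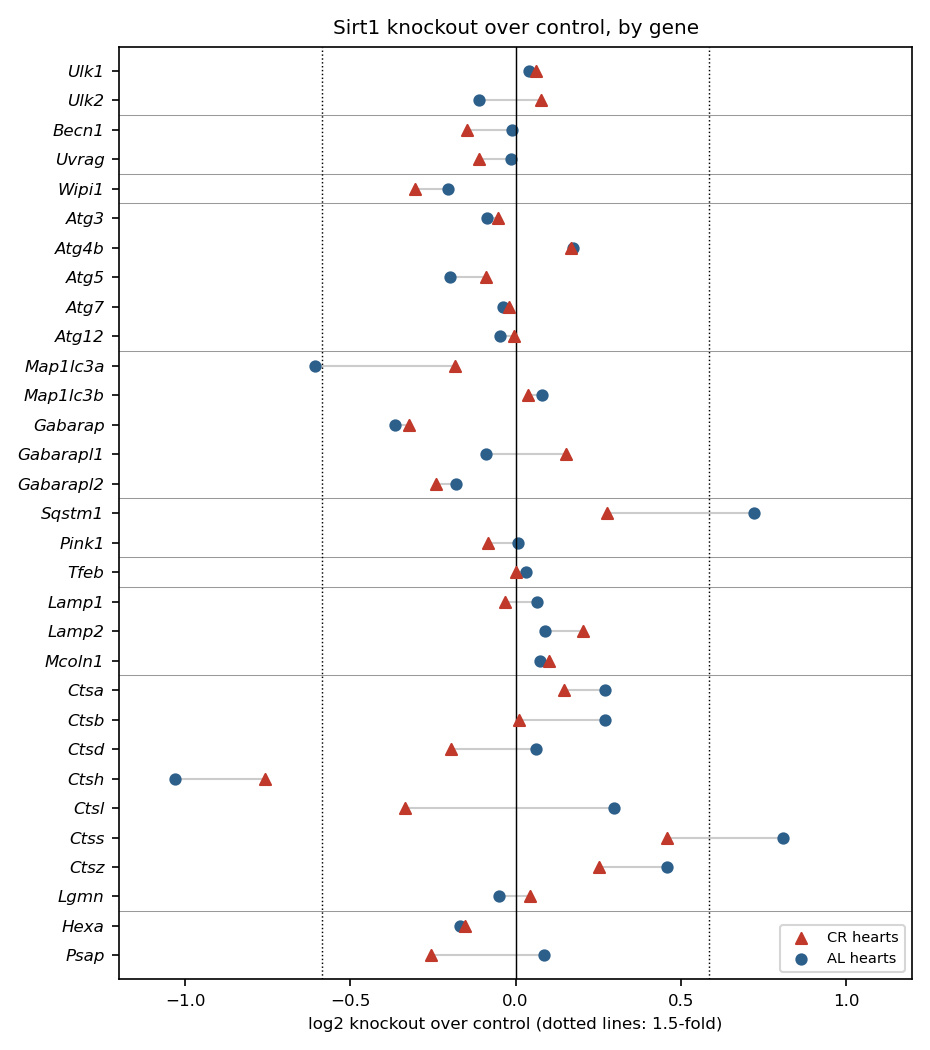
Log2 knockout over control (x axis) for the 31 detected members, ordered by role with lines between roles, in CR hearts (red triangles) and AL hearts (blue circles); dotted lines mark 1.5-fold. Ctsh lies past the lower line on both diets, Map1lc3a on AL only, and Ctss and Sqstm1 lie past the upper line on AL only.

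On the spot signal alone, Ctsh had the largest genotype difference of the 31 members. Its log2 signals were 8.48 and 8.43 in the knockout CR and AL hearts and 9.23 and 9.46 in the control CR and AL hearts, so both knockout hearts lay below both control hearts. The log2 knockout over control was -0.76 under CR and -1.03 under AL, and 14 of 12783 genes were lower under AL. This rests on how the local background was treated. With that background subtracted the values were 0.01 under CR and -0.35 under AL. Around the Ctsh spot it was 154 and 114 scanner units on the knockout array (CR and AL) and 435 and 347 on the control array, against spot signals of 375 and 302 on the knockout and 711 and 659 on the control array.

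Ctss had log2 signals of 7.16 and 7.59 in the knockout CR and AL hearts and 6.71 and 6.78 in the control CR and AL hearts. Both knockout hearts lay above both control hearts, by 0.46 under CR and 0.81 under AL. The AL value stayed past 1.5-fold in all 8 other ways of processing, between 0.78 and 1.25. Among them, the mean of all probes, no detection filter and brighter genes only leave it unchanged by construction. Of the macrophage markers 14 of 16 were also higher in the knockout AL heart, with a median of 0.19 and values between 0.81 (C1qa) and -0.40 (Tyrobp). So were 8 of 10 fibroblast markers, with a median of 0.45, and 11 of 14 cardiomyocyte markers, with a median of 0.21. Under CR the medians were 0.05 for macrophage, 0.14 for fibroblast and 0.12 for cardiomyocyte markers. With the local background subtracted, the AL medians were 0.18 for macrophage, 0.01 for fibroblast and 0.68 for cardiomyocyte markers. The CR medians were then 0.09, -0.08 and 0.65 in that order. Ctsz ran the same way as Ctss, at 0.25 under CR and 0.46 under AL, and Ctsb had 0.01 under CR and 0.27 under AL. Subtraction of the local background gave Ctsz 0.69 under CR and 1.13 under AL, and Ctsb 0.72 under CR and 0.90 under AL. The part of any of these cell types in this was not tested.

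Sqstm1 had a log2 knockout over control of 0.28 under CR and 0.72 under AL. The AL value ran between 0.54 and 2.03 in the other ways of processing and was past 1.5-fold in 7 of 8, the exception being median scaling of the channels. Map1lc3a had -0.18 under CR and -0.61 under AL, and between -1.49 and -0.61 under AL with all 8 past 1.5-fold. For Sqstm1 and Map1lc3a the mean of all probes, no detection filter and brighter genes only leave the value unchanged by construction. On the spot signal both AL values rest on the control AL heart described above, which also enters the diet difference of the control pair. Subtraction of the local background gave Sqstm1 1.22 under CR and 2.03 under AL, and both knockout hearts then lay above both control hearts. Gabarap had -0.32 under CR and -0.36 under AL, the same direction on both diets, with spot signals of 1406 and 1382 scanner units in the knockout CR and AL hearts and 2077 and 2038 in the control CR and AL hearts. These became -1.97 under CR and -2.02 under AL when the local background was subtracted.

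The initiation, nucleation and conjugation genes and Wipi1 showed no genotype difference of 1.5-fold on either diet on the spot signal alone, and Wipi1 was the furthest from 0 among them at -0.30 under CR and -0.20 under AL. Lamp1 had -0.03 under CR and 0.06 under AL, and Lamp2 0.20 under CR and 0.09 under AL. Mcoln1 had 0.10 under CR and 0.07 under AL. Subtraction of the local background turned Lamp2 to -0.47 under CR and -1.01 under AL and Mcoln1 to -0.43 under CR and -0.68 under AL, and put Lamp1 past 1.5-fold under CR, with more signal in the knockout heart. Tfeb had 0.00 under CR and 0.03 under AL. In direction, 11 members were above 0 and 12 below 0 on both diets, and 8 had opposite signs.

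The local background moved the genotype values of many members far more than their diet values. With it subtracted, knockout over control shifted by at least 1.5-fold for 14 of 31 members under CR and 15 under AL, and the sign changed for 16 and 7. For CR over AL the shift reached 1.5-fold for 0 members in the knockout and 1 in the control pair, with 8 sign changes in each. Such shifts were not counted over all genes. Ctsd was the most affected: around its spot the local background was 7772 and 7428 scanner units in the control CR and AL channels, nearly the spot signals of 8249 and 7589. Its knockout over control under AL was 0.06 without and 4.39 with subtraction.

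**Figure D5:**
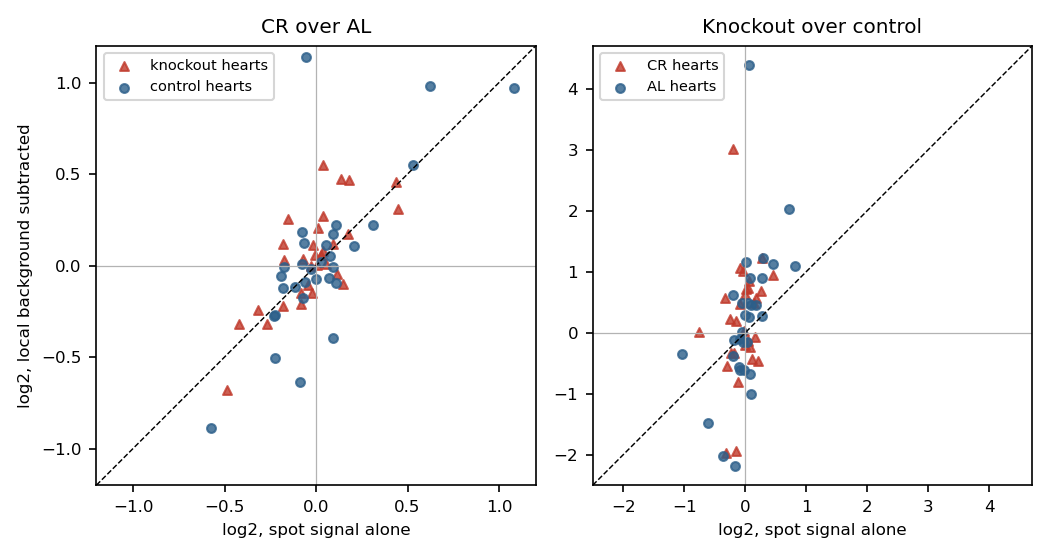
Log2 difference of each of the 31 members with the local background subtracted (y axis) against the spot signal alone (x axis), for CR over AL (left) and knockout over control (right); the dashed line marks equal values. Most diet differences lie nearer to the line than genotype differences, with Ctsd farthest from it at 1.14 in the control pair. Genotype differences reach 4.39 for Ctsd under AL.

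Other genes of the pathway, listed by function, were read beside the members. Of 35 other autophagy genes compared, 1 was higher and 0 lower by 1.5-fold in the CR heart of the control pair, and 0 either way in the knockout pair. Over all genes these shares were 0.814% higher and 0.34% lower in the control pair and 0.758% each way in the knockout pair. That 1 was Optn, encoding the mitophagy receptor optineurin, with log2 signals of 8.05 and 7.52 in the knockout CR and AL hearts and 7.83 and 7.20 in the control CR and AL hearts. Its log2 CR over AL was 0.53 in the knockout and 0.62 in the control pair, so the CR heart was the higher one in both. Bnip3l, another mitophagy receptor, had 7.59 and 7.55 in the knockout CR and AL hearts and 7.99 and 8.14 in the control CR and AL hearts, with no such order. For Optn the log2 CR over AL of the control pair was 0.47 with the local background subtracted. The list medians were 0.03 in the knockout and -0.00 in the control pair.

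By genotype, Vcp, the ATPase that extracts ubiquitinated proteins, was higher in the knockout AL heart by 1.15 on the log2 scale. Atg10, the E2-like enzyme for ATG12, was higher by 0.80 under AL and 0.96 under CR. Ei24, an autophagy protein of the endoplasmic reticulum, had -0.62, and Bnip3l had -0.59 under AL. These are 2 higher and 2 lower of 35 under AL, beside 2.57% and 1.78% of all genes. With the local background subtracted Atg10 had 0.19 under AL, and Vcp had 1.61. The response of Vcp to diet differed by -0.61, knockout minus control.

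Of 28 other lysosomal hydrolases, 1 was higher in the CR heart of the control pair, against 0.814% of all genes. It was Aga, an enzyme that cleaves asparagine-linked sugars, at 0.50 in the knockout and 0.65 in the control pair, the second being 0.27, under 1.5-fold, with the local background subtracted. In the knockout pair 0 of 27 passed 1.5-fold. Between genotypes Aga had -0.62 under CR, which was 0.98 with the local background subtracted. Of 27 other lysosomal membrane and proton pump genes, 0 passed 1.5-fold by diet in either pair. Between genotypes under AL the pump subunits and partners Atp6v1b2 and Atp6ap1 were higher by 0.80 and 0.75, and Atp6v0b and Atp6v1f had -0.72 and -0.61, so genes of 1 pump lay on both sides of 0. Subtraction of the local background gave 0.27 for Atp6ap1 and -0.10 for Atp6v0b.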

How the data were processed

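Spot intensity at 532 nm (Cy3, CR) and 635 nm (Cy5, AL) and the local background around each spot were deposited by the authors for 2 arrays, per the file headers. A second deposited table gives normalized log2 values, CR over AL, per the labels. Scanner values gave it back as log2 of the signals minus the array's blanks, less a constant of 0.359 (control) or 0.144 (knockout), within 0.001 for 17404 of 17405 and 16554 of 16555 values. Its column medians were -2.89e-06 and 8.08e-05, so scale, centring and direction are known. The sources used here do not give the scanner software or a genome build.

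Here, intensities were corrected with normexp (offset 50, which shrinks differences of dim genes) and loess within array, with control and marked spots at weight 0, and Aquantile between arrays (limma 3.58.1, R 4.3.3). Local background was not subtracted. Blank means left out 5% at each end. Probes detected were 74.0% and 77.6% in the knockout CR and AL hearts and 77.8% and 80.7% in the control CR and AL hearts. The number of arrays limits the precision, and repeated control spots (SD of log2 ratios 0.048 to 0.088) describe spot noise only. The brightest probe stood for a gene. Spots of 1 probe were averaged. Of 16631 probes with 1 symbol, the gene table of GRCm38.p6 held 12622 as they stand and 3947 as synonyms, and 62 not at all. Members are named, except 1 that is not reported here, and of other pathway lists up to 3 genes per direction past 1.5-fold. The members and lists were chosen with earlier results of these data known. The steps were tested on simulated data. Figures and counts used Python 3.11.15.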

Additional observations from a re-analysis of the deposited data

How the results depend on the processing

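With the local background subtracted, 2 members were lower by 1.5-fold for CR over AL in control hearts, against 1.28% of all genes. In knockout hearts 1 was lower, against 1.43%. For the difference of responses 2 were higher and 3 lower, against 3.26% and 2.19% of all genes. For knockout over control under AL 9 were higher and 7 lower, against 9.67% and 9.54%. Under CR 10 were higher and 3 lower, against 11.1% and 10.4%. The medians of members for knockout over control became 0.25 (AL) and 0.19 (CR). Ctsh under CR turned to 0.0058. With a normexp offset of 0, 1 member was lower in the CR heart of the knockout pair, against 3.49% of all genes. With that offset 1 was higher in the knockout under CR, against 5.90% of all genes. Median centring gave a median CR over AL of 0.0351 in control hearts. Median scaling of the channels left 1 member higher in the knockout under AL, against 1.75% of all genes. In the authors' deposited ratios, CR over AL of the members in control hearts had a median of -0.0914. There 1 member was higher and 1 lower, against 8.78% and 4.54% of all genes. Knockout hearts had 1 lower, against 6.00%. The difference of responses had 1 higher and 0 lower, against 5.97% and 7.33% of all genes. The cause of these moves was not tested. Over all genes, calls that were higher made up 70.5% for CR over AL in control hearts, and 43.9% with local background, 59.5% with offset 0 and 89.3% with median centring. For the difference of responses they were 42.3%, and 59.8% with local background and 25.6% with median centring. For knockout over control they were 57% under CR and 59.2% under AL, and 26% and 35.5% with median scaling. Loess within blocks, the mean of all probes, no detection filter and restriction to brighter genes moved none of these counts by over 1.5 times. All of these but loess within blocks leave the value of a gene with 1 probe unchanged by construction. Loess within blocks exchanged Sqstm1 and Pink1 at the limit. No paired analysis was possible because each group has 1 array and no result comes from a test; leaving out an array leaves no comparison. Members near the detection limit, such as Atg3 and Tfeb, show smaller differences than brighter ones could.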

Other observations

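Genes that govern TFEB and mTORC1, the kinase complex that holds TFEB in the cytoplasm of fed cells, were read as a further list. Of 22 compared in the knockout pair, 1 was higher in the CR heart by 1.5-fold and 0 lower, and of 23 in the control pair 0 either way, beside 0.758% of all genes each way in the knockout pair and 0.814% higher and 0.34% lower in the control pair. The medians of log2 CR over AL were -0.00 in the knockout and 0.04 in the control pair. The 1 gene was Flcn, encoding folliculin, which helps mTORC1 to act on TFEB. Its log2 signals were 9.59 and 8.81 in the knockout CR and AL hearts and 9.33 and 9.17 in the control CR and AL hearts, a log2 CR over AL of 0.78 in the knockout pair. With the local background subtracted that value was -0.32, so its direction depends on this choice. Prkaa2, the AMPK catalytic subunit that prevails in heart and skeletal muscle, was higher in the knockout AL heart by 0.61 (0.20 with local background subtracted), with log2 signals of 8.27 and 8.35 in the knockout CR and AL hearts and 7.97 and 7.75 in the control CR and AL hearts.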
